A study of Homo sapiens with 8 samples.

Results

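The genes described here are the 46 human protein-coding genes whose symbols read FOX, a letter from A to S and a number, without the liver factors FOXA1, FOXA2 and FOXA3 and without FOXC1, FOXF2 and FOXQ1, which lie side by side on chromosome 6. They were taken by symbol from 20037 protein-coding genes, by a rule that uses no measured value. Of the 46, 29 are at most 10 kb long and 17 are longer. FOXL2NB is among them through its symbol only. It is a neighbour of FOXL2 and encodes no forkhead domain. A set of 7 (FOXD4, FOXD4L1, FOXD4L3, FOXD4L4, FOXD4L5, FOXD4L6 and FOXO3B) are near-identical copies of other forkhead genes, and for these a coverage of 0 cannot be told apart from reads that could not be placed. FOXO3 shares sequence with FOXO3B and is uncertain for the same reason.

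Forkhead proteins are transcription factors that bind DNA through a winged-helix domain, and the letter of the symbol names the subclass. Many act in single tissues of the embryo, such as the thymus, the thyroid, the lens, the ovary or the neural crest. Others, among them the FOXO, FOXK, FOXP1 and FOXM1 genes, work in most cells, where they link insulin signalling, metabolism and the cell cycle to gene expression. MacroH2A1 is a histone H2A variant with a large extra domain, found mostly on broad stretches of weakly transcribed chromatin, including silent developmental genes.

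The values come from HepG2 cells, a human hepatoblastoma line, transfected with an siRNA against the histone chaperone ANP32B (siANP32B) or with a non-targeting siRNA (siControl) and taken 3 days later. Cells had been cryopreserved, and macroH2A1 was mapped by CUT&RUN, in which an antibody guides a nuclease to its target, with 30 min of digestion. Of 8 libraries, 4 were made with anti-macroH2A1, 2 for siANP32B and 2 for siControl. The IgG libraries, 4 in number, were not analysed here. The labels do not say whether the 2 libraries of a group came from separate cultures, so all spreads below may be technical.

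The authors deposited a list of broad macroH2A1 domains for each anti-macroH2A1 library, without read totals, so depth is unknown. The lists hold 7530 and 7404 domains (563.8 and 558.6 Mb) for siANP32B, against 8623 and 8116 domains (519.3 and 467.4 Mb) for siControl. Expression was not analysed here, so marker genes could be described only through domains. A gene counted as covered in a library when at least 50% of the 1 kb bins of its body lay in a domain, and its window was the body with 50 kb on each side. Of 12 hepatocyte markers, 5 were covered in both siANP32B libraries, against 6 in both siControl libraries, where 17.3% and 13.8% of all protein-coding genes were. In the authors' deposited table of compared regions, 8 of these 12 had a lower and 0 a higher region within 50 kb. The shares over all protein-coding genes were 19.4% and 1.23%. Of the mesenchymal markers 2 of 6 were covered in both libraries of either group, and of the blood markers 2 of 4. Coverage thus did not set the hepatocyte markers apart, and the liver label was not tested.

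Most forkhead genes lay in a macroH2A1 domain either in every library or in none, as did most protein-coding genes. In siANP32B cells 20 and 15 of the 46 genes were covered, against 12 and 13 in siControl cells. In all 4 libraries 10 genes were covered, 25 were covered in no library and 11 were covered in some libraries but not all. Over all 20037 protein-coding genes these counts were 2323, 13800 and 3914. Covered in both siANP32B libraries were 14 genes (30.4%), against 17.3% of all protein-coding genes. Covered in both siControl libraries were 10 genes (21.7%), against 13.8% of all protein-coding genes. Where only domains above a score common to the 4 lists were kept, 3 genes were covered in both siANP32B and 3 in both siControl libraries. The shares of all protein-coding genes under that filter are not given here.

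Shares above those of all genes were seen among the short forkhead genes. Of the 29 genes of at most 10 kb, 12 (41.4%) were covered in both siANP32B libraries and 8 (27.6%) in both siControl libraries. The shares of all protein-coding genes of that length were 21.8% in siANP32B and 17% in siControl. Of the 17 longer genes, 2 (11.8%) were covered in both libraries of either group, below the 15.5% of all protein-coding genes of that length in siANP32B and near the 12.6% in siControl. The plot of covered shares by library shows this split.

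**Figure D1:**
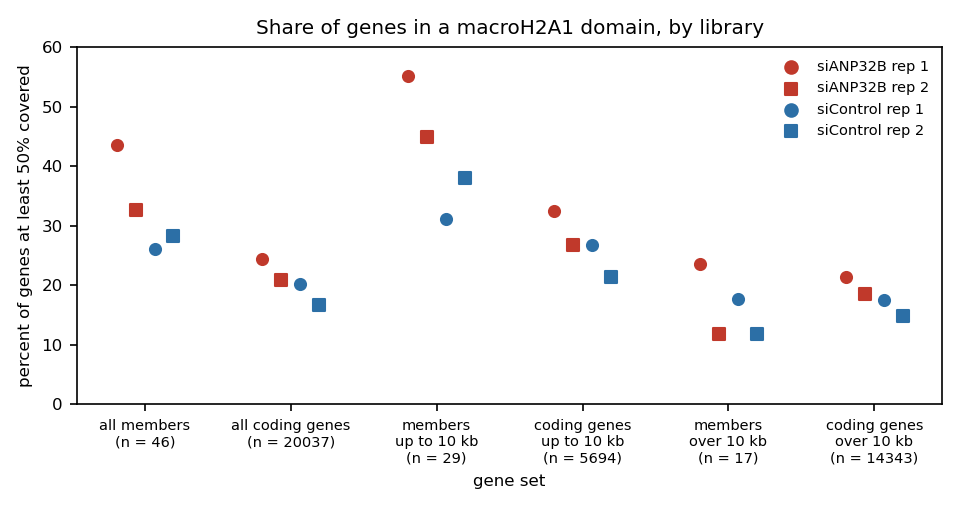
Share of genes at least 50% covered by a macroH2A1 domain (vertical axis, percent) for all 46 forkhead genes, those of at most 10 kb and those above 10 kb, each beside all protein-coding genes of the same length; 1 point per library, siANP32B in red and siControl in blue. The short forkhead genes lie highest, and the long ones overlap with their background.

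Mean body coverage of the 46 genes was 40.8% and 32.5% in siANP32B libraries, against 27.2% and 26.4% in siControl libraries. The groups did not overlap, and the means were 36.7% ± 5.89 and 26.8% ± 0.605 (SD, n = 2 each), 9.84 percentage points higher after siANP32B. All protein-coding genes moved the same way by 4.24 points, with 23.5% ± 2.61 in siANP32B and 19.3% ± 2.53 in siControl libraries (SD, n = 2 each). Their groups did not overlap either, with 25.3% and 21.6% in siANP32B, against 21.0% and 17.5% in siControl libraries. Without siANP32B replicate 1 the forkhead difference was 5.67 points. With only domains above the common score it turned to -5.46 points, and with equal numbers of the best domains in each list it was 15.0 points. Mean window coverage was 34.9% and 31.3% in siANP32B libraries, against 29.7% and 25.3% in siControl libraries. That is 5.54 points higher after siANP32B, beside 3.44 points for all protein-coding genes, and it was 3.32 points without siControl replicate 2. Above the common score the window difference turned to -5.81 points, and with equal numbers of domains it was 10.7 points. Here and below, such filtered values are given for forkhead genes only. Whether all protein-coding genes shift likewise was not tested.

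The difference in body coverage was larger in the short genes. Their mean was 47.9% ± 7.81 in siANP32B and 33.2% ± 1.83 in siControl libraries (SD, n = 2 each), 14.7 points higher, beside 5.45 points for all protein-coding genes of that length. It was 9.21 points without siANP32B replicate 1, 22.9 points with equal numbers of domains and -7.76 points above the common score. For the longer genes it was 17.4% ± 2.62 in siANP32B and 15.9% ± 4.76 in siControl libraries, 1.49 points higher and less than the spread within either group, beside 3.76 points for all protein-coding genes of that length. Its sign changed without siANP32B replicate 1 (-0.37 points), without siControl replicate 2 (-1.88 points) and above the common score (-1.53 points). The map of body and window coverage gives the values by gene and library.

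**Figure D2:**
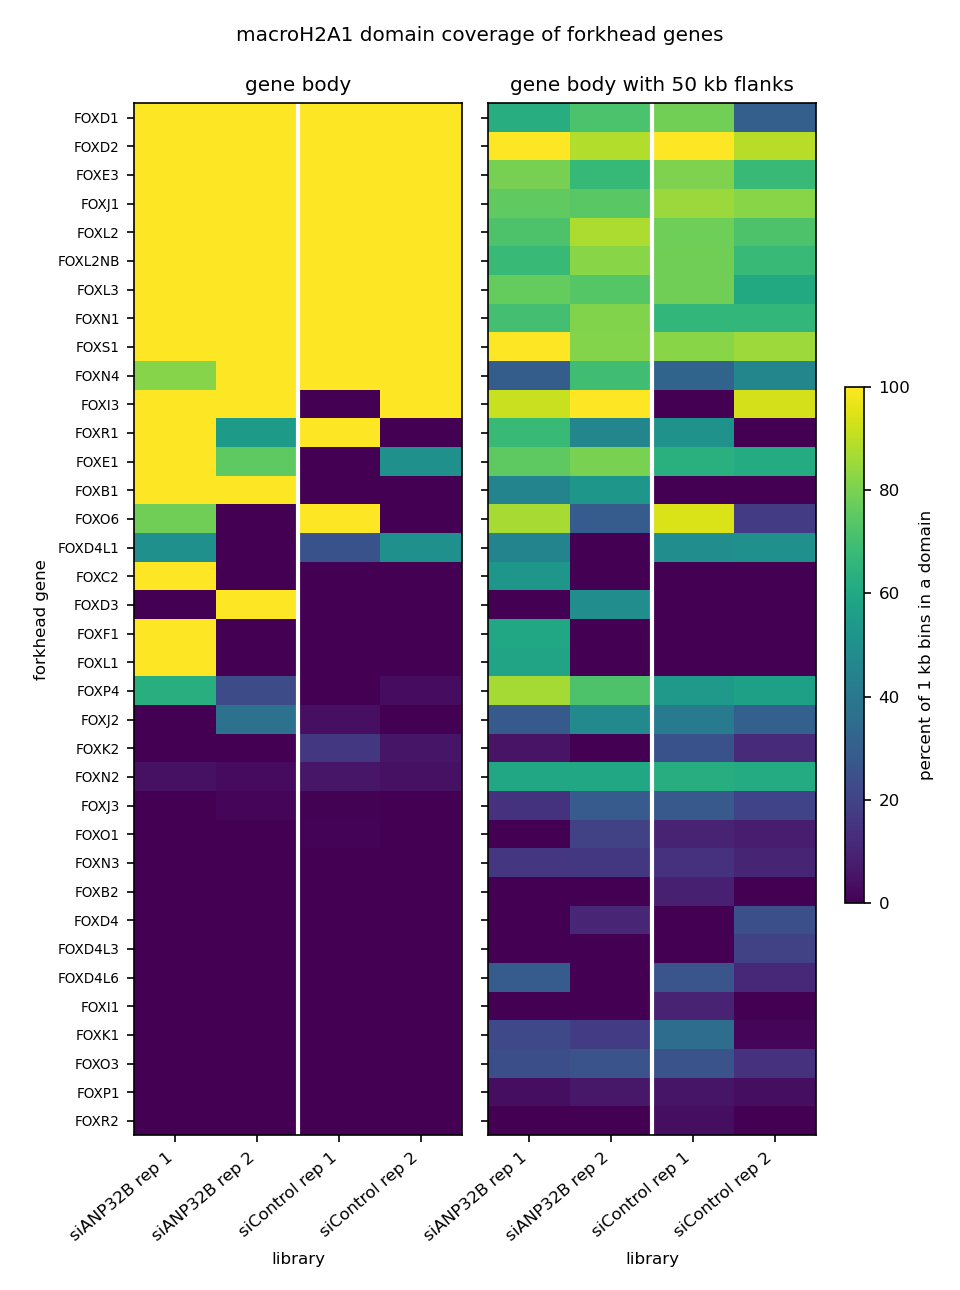
Percent of 1 kb bins in a macroH2A1 domain (colour, 0 to 100) for each forkhead gene with any coverage in its window (rows, sorted by the number of libraries that covered it, then by mean body coverage) in the 2 siANP32B and 2 siControl libraries (columns), over the gene body (left panel) and the body with 50 kb flanks (right panel). The 10 uppermost genes are covered in every library, and bodies in most of the lower rows are at or near 0 in every library; the 10 genes with windows at 0 throughout are not drawn.

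The 10 genes covered in all 4 libraries were FOXD1, FOXD2, FOXE3, FOXJ1, FOXL2, FOXL2NB, FOXL3, FOXN1, FOXN4 and FOXS1. Their bodies lay wholly in a domain in every library, apart from 81.8% of FOXN4 in siANP32B replicate 1. The domains that held them had median lengths of 135 and 131 kb in siANP32B, against 149 and 129 kb in siControl libraries. The medians of all domains were 47 and 48 kb in siANP32B and 38 and 39 kb in siControl. Domains found through a gene they hold are more often long ones, so this contrast cannot show a trait of forkhead genes. Lengths of domains that hold other covered genes are not given here.

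FOXD2, which acts in mesenchyme and kidney development, and FOXE3, a lens factor, lie together on chromosome 1. FOXD2 (chr1:47438044-47440691) was held by domains of 209 and 208 kb in siANP32B libraries, against 200 and 99 kb in siControl libraries. These ranked near the top of each list, at the 99.2nd and 99.1st percentile of the deposited score in siANP32B and the 98.7th and 99.5th in siControl. FOXE3 shared that domain in replicate 1 of either group, and in replicate 2 it had its own of 36 kb in siANP32B and 37 kb in siControl. The promoter of FOXD2 is shown as that of a gene in a high-scoring domain whatever the siRNA. It is taken from RefSeq (GRCh38.p14, chr1:47437794-47438093, plus strand) and runs from 250 bases before to 50 bases after the gene start, with the CpG dinucleotides, where DNA methylation is placed, in capitals.

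FOXD2: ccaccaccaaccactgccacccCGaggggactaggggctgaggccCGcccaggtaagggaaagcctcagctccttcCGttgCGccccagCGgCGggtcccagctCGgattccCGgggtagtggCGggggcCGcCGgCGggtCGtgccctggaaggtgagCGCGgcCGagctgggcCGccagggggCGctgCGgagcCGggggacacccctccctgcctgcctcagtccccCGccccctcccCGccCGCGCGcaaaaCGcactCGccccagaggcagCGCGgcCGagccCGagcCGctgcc

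This stretch is 76.7% G or C and holds 32 CpG dinucleotides, against a median of 21 over the 22199 RefSeq promoters of protein-coding genes.

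FOXL3, a gene for which a role in germ cell fate is known from medaka fish, lay in long domains of similar length in every library. They measured 296 and 297 kb in siANP32B libraries, against 285 and 271 kb in siControl libraries, and also held PDGFA. FOXL2, a factor of the ovary, and its neighbour FOXL2NB shared domains of 135 and 150 kb in siANP32B, against 69 and 135 kb in siControl. The groups overlapped there. FOXD1, which marks the stroma of the embryonic kidney, had domains of 69 and 65 kb in siANP32B, against 77 and 31 kb in siControl, with overlap again.

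FOXN1 drives the thymic epithelium, and the related FOXN4 acts in the retina of the mouse embryo. The FOXN1 domain was longer in siANP32B libraries (184 and 194 kb) than in siControl libraries (134 and 139 kb), and the groups did not overlap. It reached over VTN and SARM1 in both siANP32B libraries and in neither siControl library. FOXN4 lay in 1 domain of 74 kb in siANP32B replicate 2 and in a pair of 16 and 23 kb in siANP32B replicate 1, against single domains of 43 and 61 kb in siControl. FOXS1 sat in domains of 436 and 131 kb in siANP32B, against 298 and 129 kb in siControl, which ranked low in score, at the 9.64th and 1.18th percentile in siANP32B and the 4.59th and 4.06th in siControl.

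FOXJ1, the master factor of motile cilia, went the other way. Its domain measured 39 and 40 kb in siANP32B libraries, against 164 and 161 kb in siControl libraries. In the siControl libraries it ran on over RNF157 as far as UBALD2, whereas in both siANP32B libraries it broke just beyond FOXJ1 and a further domain began after the gap. Window coverage was 75.5% and 74.5% in siANP32B, against 84.9% and 82.1% in siControl libraries, and the body stayed at 100% in every library.

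FOXB1 was the single forkhead gene covered in both siANP32B libraries and in neither siControl library (1 of 46, where 2.22% of protein-coding genes were so called). The opposite was true of 0 of 46 genes, with a background of 0.604%. FOXB1 (chr15:60004311-60007444), a factor of the mammillary bodies in the mouse brain, had a body coverage of 100% in either siANP32B library, against 0% in either siControl library. Its window was covered to 45.2% and 52.9% in siANP32B, against 0% and 0% in siControl libraries. The exact two-sided permutation test gave p = 0.333, the smallest that 2 libraries against 2 can reach. The siANP32B domains were 47 and 41 kb long with low scores, at the 6.52nd and 30.0th percentile of their lists. In siControl cells the nearest domains lay 71.6 and 84.6 kb away. The FOXB1 promoter is shown because its state differed between the groups (RefSeq, GRCh38.p14, chr15:60004061-60004360, plus strand, CpG in capitals).

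FOXB1: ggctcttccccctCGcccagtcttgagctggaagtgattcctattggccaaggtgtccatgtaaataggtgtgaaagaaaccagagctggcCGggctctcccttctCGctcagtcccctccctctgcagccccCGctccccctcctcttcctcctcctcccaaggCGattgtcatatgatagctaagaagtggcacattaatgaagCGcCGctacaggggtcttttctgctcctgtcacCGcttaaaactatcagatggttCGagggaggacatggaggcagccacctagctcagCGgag

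It is poorer in CpG than that of FOXD2, with 10 CpG dinucleotides and 56.3% G or C.

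FOXP4, a forkhead gene of lung and forebrain that pairs with FOXP1 and FOXP2, is the gene above 10 kb whose body coverage differed most between the groups. Its body (chr6:41546381-41602384) was covered to 63.2% and 22.8% in siANP32B libraries, against 0% and 3.51% in siControl libraries, and its window to 86.6% and 72.0%, against 54.1% and 56.7%. The groups did not overlap in either measure, and the exact two-sided permutation p for the body was 0.333, the smallest possible. Domains of 446 and 284 kb in siANP32B came from the side of the TREM genes and ran over the gene start, whereas in siControl cells the domains on that side ended before it. On the far side, domains over MDFI and TFEB reached into the gene in 2 of 2 siANP32B libraries and 1 of 2 siControl libraries. The antisense gene FOXP4-AS1, which overlaps the FOXP4 start, was covered to 100% and 92.3% in siANP32B, against 30.8% and 38.5% in siControl libraries. The FOXP4 promoter (RefSeq, GRCh38.p14, chr6:41546131-41546430, plus strand, CpG in capitals) lay in a domain in both siANP32B libraries and in neither siControl library.

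FOXP4: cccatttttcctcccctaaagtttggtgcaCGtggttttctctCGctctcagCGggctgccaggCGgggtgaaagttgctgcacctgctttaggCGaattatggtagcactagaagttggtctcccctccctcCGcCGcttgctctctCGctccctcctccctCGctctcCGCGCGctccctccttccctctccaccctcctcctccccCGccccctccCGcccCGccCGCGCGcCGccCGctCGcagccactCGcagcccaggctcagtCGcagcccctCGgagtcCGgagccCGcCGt

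It holds 27 CpG dinucleotides at 67.7% G or C.

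FOXE1, the thyroid factor on chromosome 9, had a body coverage of 100% and 75% in siANP32B libraries, against 0% and 50% in siControl libraries. The groups did not overlap (exact permutation p = 0.333, the smallest possible), and the window gave the same order, with 75% and 79.8% in siANP32B against 63.5% and 61.5% in siControl. FOXI3, a factor of teeth, hair and the ear placode, was wholly covered in both siANP32B libraries and siControl replicate 2 but not at all in siControl replicate 1. Its domains measured 144 and 491 kb in siANP32B and 111 kb in siControl replicate 2, all of low score. The map of domains around selected forkhead genes draws these loci.

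**Figure D3:**
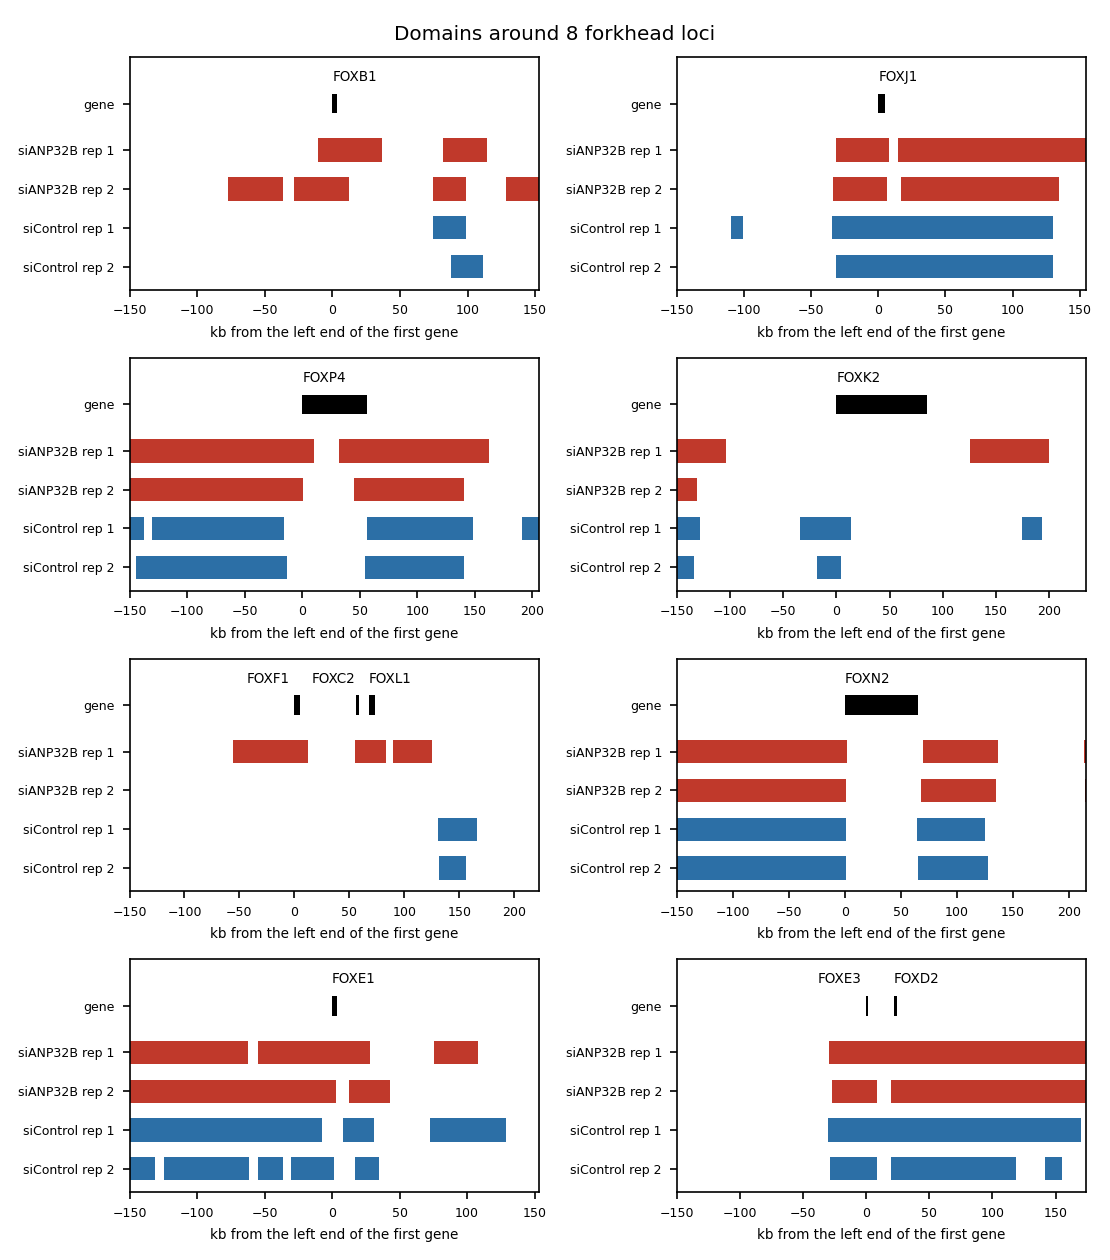
Domains (bars) in each library, siANP32B in red above siControl in blue, around forkhead genes (black), with distance in kb from the left end of the first gene on the horizontal axis; the panels were chosen to show the main patterns. The starts of FOXB1 and FOXP4 are in a domain in both siANP32B libraries alone and that of FOXK2 in both siControl libraries alone, the FOXJ1 domain breaks beyond the gene in siANP32B, FOXF1, FOXC2 and FOXL1 are in domains of siANP32B replicate 1 alone, and FOXN2 lies between domains that end at or near its borders.

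Of the other genes covered in some libraries, 4 were covered in a single library. FOXF1 (lung and gut vessels and mesenchyme), FOXC2 (lymphatic vessels) and FOXL1 (gut mesenchyme) lie side by side on chromosome 16 and were each covered to 100% in siANP32B replicate 1 and to 0% in the other 3 libraries. FOXC2 and FOXL1 shared a domain of 28 kb and FOXF1 lay in a domain of 68 kb, so the 3 genes are not independent. FENDRR, the noncoding gene beside FOXF1, followed the same pattern (100% and 0% in siANP32B, against 0% and 0% in siControl). FOXD3, a neural crest and stem cell factor, was covered to 100% in siANP32B replicate 2 alone, as was its antisense neighbour FOXD3-AS1.

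FOXO6 was covered in replicate 1 of either group (78.3% in siANP32B, 100% in siControl) and at 0% in replicate 2 of either group. FOXR1 stood at 100% and 54.5% in siANP32B, against 100% and 0% in siControl libraries. FOXD4L1, which is 1 of the near-identical copies, stood at 50% and 0% in siANP32B, against 25% and 50% in siControl. None of these separates the groups.

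Of the 46 genes, 19 had a body coverage of 0% in all 4 libraries, beside 9398 of all 20037 protein-coding genes, a slightly larger share. For 10 of the 19, among which were FOXP2, FOXP3, FOXM1, FOXH1, FOXI2, FOXO4, FOXO3B, FOXD4L4 and FOXD4L5, the whole window was at 0% as well. The same held for 4776 of all 20037 protein-coding genes, again a slightly larger share. The 10 forkhead genes include broadly used and tissue-restricted ones. FOXM1 drives mitotic genes and FOXO4 answers to insulin, whereas FOXP2 is known from speech, FOXP3 from regulatory T cells and FOXH1 from Nodal signalling. FOXB2, FOXI1, a gene of the inner ear and kidney, and FOXR2 had windows covered by at most 8.82%, 9.52% and 3.85%, in siControl replicate 1 alone. The copies FOXD4, FOXD4L3 and FOXD4L6 also had bodies at 0% in every library, with windows of at most 29.1% in siANP32B and 26.2% in siControl, both for FOXD4L6 in replicate 1.

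Genes of the FOXO class, which insulin signalling sends out of the nucleus, were uncovered but for FOXO6. FOXO1 had a window coverage of 0% and 19.3% in siANP32B, against 9.91% and 8.02% in siControl libraries. FOXO3 had 23.9% and 25.7% in siANP32B, against 25.7% and 14.2% in siControl libraries. The groups overlapped for both genes, and no body exceeded 0.893% in any library.

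FOXK2, which with FOXK1 governs glucose use, was the 1 gene whose start lay in a domain in both siControl libraries and in neither siANP32B library. Its body (chr17:82519732-82604602) was covered to 0% and 0% in siANP32B, against 16.3% and 5.81% in siControl libraries, and its window to 5.38% and 0%, against 25.3% and 11.8%. The groups did not overlap, with an exact two-sided permutation p of 0.333 for the body, the smallest possible. The siControl domains over its start were 47 and 22 kb long. FOXK1 had a body at 0% in every library, and its window ranged from 17.9% to 22.1% in siANP32B and from 1.58% to 35.8% in siControl. The FOXK2 promoter (RefSeq, GRCh38.p14, chr17:82519482-82519781, plus strand, CpG in capitals) is shown as the counterpart of that of FOXB1.

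FOXK2: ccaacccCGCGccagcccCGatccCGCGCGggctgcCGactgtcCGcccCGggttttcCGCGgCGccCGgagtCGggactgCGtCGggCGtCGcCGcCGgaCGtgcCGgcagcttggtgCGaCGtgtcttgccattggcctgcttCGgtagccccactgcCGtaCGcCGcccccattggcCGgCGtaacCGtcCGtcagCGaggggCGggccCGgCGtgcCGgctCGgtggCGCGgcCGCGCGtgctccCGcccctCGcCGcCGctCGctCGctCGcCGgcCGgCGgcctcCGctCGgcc

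It is the most CpG-rich of the 4 printed, with 55 CpG dinucleotides and 79.0% G or C.

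Several long forkhead genes had little macroH2A1 in the body in most libraries beside a flank that was covered in part or whole. FOXN2 lay between domains on both sides in every library, with a body coverage of 4.48% and 2.99% in siANP32B, against 5.97% and 4.48% in siControl libraries. Its flank at lower coordinates was covered to 100% in all 4 libraries, and its other flank to 92.2% and 94.1% in siANP32B, against 100% and 100% in siControl. FOXN3, known as a checkpoint suppressor, is among the longest forkhead genes (462989 bases), and at most 0.216% of it was covered, while the 50 kb before its start were covered to 96.1% and 100% in siANP32B, against 100% and 76.5% in siControl.

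FOXJ3 had at most 1.25% of its body covered, with 35.3% and 98.0% of the 50 kb before its start in siANP32B, against 58.8% and 43.1% in siControl. FOXP1, a gene of B cells and heart, had a body at 0% in every library, with 51.0% and 92.2% of the 50 kb before its start covered in siANP32B, against 78.4% and 51.0% in siControl. FOXJ2 had 68.6% and 100% of the 50 kb before its start covered in siANP32B, against 100% and 74.5% in siControl, and a body coverage of 0% and 37.5%, against 4.17% and 0%. The groups overlapped in each of these 3 flanks.

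Over the 13 forkhead genes above 10 kb that were covered in no library, mean body coverage was 1.79% ± 2.04 in siANP32B and 1.48% ± 0.971 in siControl libraries, while the 50 kb flanks reached 33.4% ± 5.49 in siANP32B and 33.0% ± 9.65 in siControl (SD, n = 2 each). The 10506 protein-coding genes of the same kind had bodies at 3.31% ± 0.513 in siANP32B and 2.43% ± 0.426 in siControl, and flanks at 22.7% ± 1.15 in siANP32B and 20.9% ± 2.63 in siControl. Both sets were picked for bodies less than 50% covered in every library, so bodies below their flanks follow in part from that choice. A domain edge lay within 5 kb of a gene end in 4 and 5 of the 13 genes in siANP32B (30.8% and 38.5%), against 7 and 4 in siControl (53.8% and 30.8%). For all such protein-coding genes the shares were 21.9% and 21.8% in siANP32B, against 25.4% and 19.5% in siControl libraries. With 13 genes, a single gene moves these shares by several points.

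RefSeq promoters were found for 36 of the 46 genes, with 47 starts. Of these starts, 7 lay in a domain in all 4 libraries and 26 in none. Those of FOXB1 and FOXP4 lay in a domain in both siANP32B libraries and in neither siControl library (2 of 47, where the share over all 22199 starts was 2.67%). The opposite held for FOXK2 (1 of 47, with a background of 0.95%).

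Counted by start, covered forkhead genes held more CpG at the median, with wide overlap of the ranges. Near-identical copies and genes with several starts make up much of the uncovered group. The 7 starts of genes covered in all 4 libraries held a median of 28 CpG dinucleotides per 300 bases (12 to 35), the 8 of genes covered in some libraries 28 (3 to 42), and the 32 of uncovered genes 19 (1 to 55). Median G or C was 68%, 67% and 59% in that order, beside 62.3% over all promoters. FOXP1 alone gave 6 of the 32 uncovered starts, so these are not independent. The copies FOXD4, FOXD4L3, FOXD4L4, FOXD4L5, FOXD4L6 and FOXO3B (2 to 22 CpG) are also among them, and their coverage of 0 is uncertain. FOXE3, FOXJ1 and FOXS1, covered in all 4 libraries, had no promoter to count. Whether the medians differ with 1 start per gene and without copies was not tested. The forkhead core motif TGTTTAC, searched on both strands, was in 2 of the 47 promoters (4.26%), those of FOXO4 and of 1 FOXP1 start, both uncovered, against 2.85% of all promoters.

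**Figure D4:**
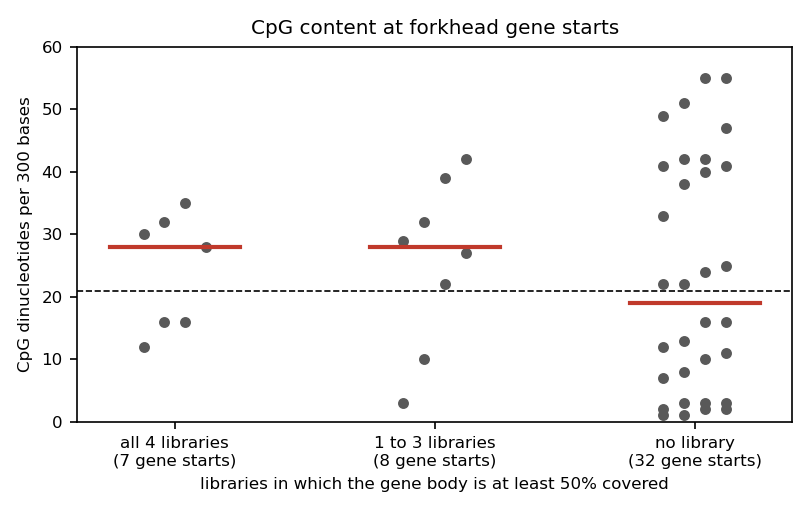
Number of CpG dinucleotides per 300-base promoter (vertical axis) of each forkhead gene start (points), grouped by whether the gene body was covered in all 4 libraries, in 1 to 3 or in none; red bars are medians (28, 28 and 19) and the dashed line is the median of 21 over all protein-coding promoters. The uncovered starts span the whole range, from 1 to 55, and include near-identical copies and several starts of the same gene.

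The authors also deposited a table that compares siANP32B with siControl in 4474 regions. The fold given for a region is that of its representative window and does not describe the whole region. Which group is on top of its folds is not written in it, and the sign was read from the domain lists. A region counted as covered by the minimum used for gene bodies. Of the regions higher after siANP32B, 99.4% and 99.4% were covered in siANP32B, against 88.3% and 80.7% in siControl libraries. Of the lower regions, 91.7% and 93.0% were covered in siANP32B, against 96.7% and 95.3% in siControl libraries. At a false discovery rate (FDR) of 0.05, 58.4% of all regions were lower after siANP32B and 3.82% were higher in the authors' deposited table.

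Within 50 kb of the forkhead genes lay 15 of these regions, of which 8 were lower, 0 higher and 7 not called in the authors' deposited table. They had a median log2 fold of -0.47, against -0.54 over all regions, and 14 of 15 were below 0 (93.3%, beside 89.2% of all), in the authors' deposited table. A lower region of the authors' deposited table lay in the window of 9 of the 46 genes, and 19.4% of protein-coding genes had one. The 9 were 5 when the 15 forkhead genes on chromosomes gained in HepG2 cells were left out, and 1 when gene bodies alone were used. Shares over all protein-coding genes are not given for these counts, which rest on fewer genes or less sequence. A higher region lay in the window of 0 of the 46 genes in the authors' deposited table, with a background of 1.23%. At the table's own unadjusted p below 0.05, 0 of the 15 regions were higher, beside 186 of all 4474 regions. With 15 regions and so small a share over all, a count of 0 says little. Counts near forkhead genes thus stood close to those of the genome. The table holds no value per library and no error, so these folds have no spread here.

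**Figure D5:**
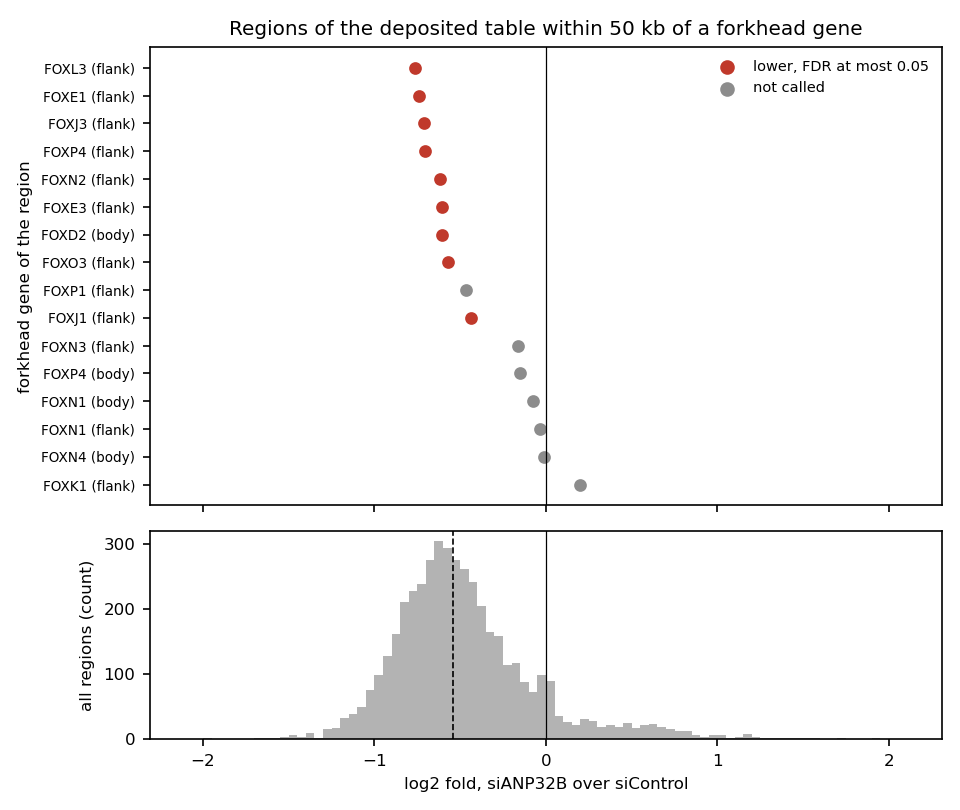
Log2 fold, siANP32B over siControl, of each region of the authors' deposited table within 50 kb of a forkhead gene (upper panel, 1 row per gene and region, red where lower at an FDR of 0.05, grey where not called; the FOXD2 and FOXE3 rows are the same region) and the histogram of all 4474 regions (lower panel, dashed line at the median of -0.54). The called forkhead regions lie between -0.77 and -0.44, within the bulk of all regions. Each fold is that of the representative window of its region.

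The strongest change near a forkhead gene was beside FOXL3, where a region of 234 kb (chr7:303001-537000) had a log2 fold of -0.77 (FDR 0.000174), with 179 of 225 windows down, in the authors' deposited table. It began 11.5 kb beyond FOXL3. The whole region lay in a domain in all 4 libraries, so the fold was lower where the domain was still called.

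FOXD2 was the single forkhead gene whose own body overlapped a lower region, by 1.69 kb. That region (98 kb, chr1:47439001-47537000), which also fell in the window of FOXE3, had a log2 fold of -0.61 (FDR 0.00460), with 25 of 89 windows down, in the authors' deposited table. It begins inside FOXD2, beyond the promoter printed above, and runs away from FOXE3. In the domain lists it was at 100% in both siANP32B libraries, against 100% and 98.0% in siControl libraries.

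FOXP4 and FOXE1 had more domain coverage in siANP32B libraries but lower regions nearby. For FOXP4, a region of 82 kb lying 37.4 kb before the gene had a log2 fold of -0.70 (FDR 0.00298), and a region of 28 kb over its far end one of -0.15 (FDR 0.656), in the authors' deposited table. Of their windows, 9 of 63 and 0 of 19 were down. For FOXE1, a region of 13 kb lying 5.23 kb away had a log2 fold of -0.74 (FDR 0.00695), with 4 of 4 windows down, in the authors' deposited table. The starts of FOXP4 and FOXE1 lie outside these lower regions. FOXB1, FOXI3, FOXK2, FOXD3 and the FOXF1 group had no tested region in their windows.

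The other lower regions lay in flanks. Beside FOXJ3 the log2 fold was -0.71 (10 kb, FDR 0.000438), beside FOXN2 -0.62 (25 kb, FDR 0.00197), beside FOXO3 -0.57 (72 kb, FDR 0.0473) and beside FOXJ1 -0.44 (10 kb, FDR 0.0212) in the authors' deposited table. The windows down numbered 1 of 1, 14 of 14, 5 of 47 and 1 of 1 in that order. Not called were the regions beside FOXP1 (-0.47, FDR 0.0545), FOXN3 (-0.16, FDR 0.852) and FOXK1 (0.20, FDR 0.397) in the authors' deposited table. Regions over the bodies of FOXN1 (-0.08, FDR 0.834) and FOXN4 (-0.01, FDR 0.962) also passed no threshold in the authors' deposited table. These are forkhead genes wholly or mostly in a domain whose tested sequence showed no called change.

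Genes that work upstream or downstream of the forkhead factors were described from lists written for this purpose. Among 25 genes of the FOXO pathway, 6 were covered in both siANP32B libraries and 6 in both siControl libraries, and 10 had a lower and 1 a higher region in their windows. For these and the following lists, the shares over all protein-coding genes were 17.3% covered in both siANP32B and 13.8% in both siControl libraries, 19.4% with a lower region and 1.23% with a higher one. GADD45A, a growth arrest gene driven by FOXO factors, had the lowest fold of them, with a log2 fold of -1.17 (FDR 4.86e-09) in the authors' deposited table. Its body was covered to 50% and 0% in siANP32B, against 100% and 100% in siControl libraries. CAT (catalase), IGFBP1 (an insulin-controlled secreted binding protein) and IRS1 (an insulin receptor substrate) had log2 folds of -0.95, -0.83 and -0.75 (FDR at most 0.000159) in the authors' deposited table.

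Of 12 mitotic targets of FOXM1, 2 were covered in both siANP32B and 1 in both siControl libraries, and 5 had a lower and 0 a higher region. BIRC5, CENPA, CDC20 and CENPF had log2 folds of -0.72, -0.66, -0.63 and -0.56 in the authors' deposited table. Of 16 genes of the Nodal pathway, in which FOXH1 acts, 6 were covered in both siANP32B and 3 in both siControl libraries, with 4 lower and 1 higher. NODAL had a log2 fold of -0.83, and LEFTY1 and LEFTY2 shared a region at -0.62, in the authors' deposited table.

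Of 11 hedgehog genes, which act upstream of FOXF1 and FOXL1, 2 were covered in both libraries of either group, with 3 lower and 1 higher. GLI2 had a log2 fold of 1.00 beside a further region that was lower, and IHH and SHH had log2 folds of -0.79 and -0.60, in the authors' deposited table. Of 14 motile cilia genes, which FOXJ1 acts with or on, 7 were covered in both siANP32B and 5 in both siControl libraries, with 3 lower and 2 higher. DNAI1 (0.89) and DNAH9 (0.65), which encode axonemal dynein chains, had higher regions, and RFX2 (-0.75) and TPPP3 (-0.63) lower ones, as log2 folds in the authors' deposited table. MCIDAS, a regulator of multiciliated cells picked after its values were seen, was covered to 100% and 100% in siANP32B, against 0% and 0% in siControl libraries.

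Of 14 noncoding genes beside forkhead genes, FOXL3-OT1 was covered in all 4 libraries, 6 were covered in none and 7 in some. No shares over all noncoding genes are given beside these counts. FOXP4-AS1 was the 1 of them in which both siANP32B libraries stood far above both siControl libraries. FOXD2-AS1 was covered to 100% and 0% in siANP32B, against 100% and 0% in siControl. It sits between FOXE3 and FOXD2, where 1 domain ran through in replicate 1 of either group and 2 domains left a gap in replicate 2.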

How the data were processed

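MacroH2A1 CUT&RUN was deposited for HepG2 cells as domain lists of the 4 anti-macroH2A1 libraries and 1 table of compared regions. The authors used SICER, edgeR, deepTools, SAMtools, Bowtie2 and Trim Galore with build hg38, per the submitters' processing notes; for versions, settings and controls the sources used here give nothing. The authors deposited a score per domain, used here to rank and filter domains only. The authors' deposited table gives a p-value and an FDR per region, and this FDR equals a Benjamini-Hochberg adjustment over all its regions. Its deposited fold is that of a representative window in each region and was taken to be on a log2 scale, the usual one for such tables. It holds no values per library (0 columns of them), so no refit was made. How libraries were scaled is also not stated, and a change of scale would move all folds together. Depth is unknown, so no counting interval is given, and the number and length of called domains depend on depth.

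Domains were laid on 1 kb bins and joined to RefSeq gene spans (GRCh38.p14, the hg38 assembly) on chromosomes 1 to 22, X and Y with Python 3.11.15, numpy 2.4.6 and pandas 2.3.3, and the coverage code was tested on simulated domains. Values are means ± SD over 2 libraries. The only tests made were exact two-sided permutation tests for single genes; counts over the genes are set beside the same counts over all protein-coding genes. The forkhead genes and the related lists were chosen with earlier results of these data known. Named genes were those covered in both libraries of a group, those with a tested region in the window, those in which both siANP32B libraries lay at least 25 points above or below both siControl libraries, and up to 4 genes per related list by smallest p. Further forkhead genes are named to account for the rest; 3 genes that the rules would name are not reported here. Alternatives covered the coverage minimum, the flank, the domain score, near-identical copies, the chromosomes gained in HepG2 cells, the FDR, the overlap and each library left out.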

Additional observations from a re-analysis of the deposited data

How the results depend on the processing

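Of 76 recomputed values, 6 changed sign and 7 moved by more than the spread between libraries or, for counts, by over 1.5 times. With only domains at or above the highest of the 4 median scores, 3 genes were covered in both siANP32B and 3 in both siControl libraries, and siANP32B minus siControl turned to -5.46 points for bodies and -5.81 points for windows (-7.76 for bodies of at most 10 kb, -1.53 for longer ones). With the 7404 best-scored domains of each list, these differences were 15.0 and 10.7 points, and 22.9 points for bodies of at most 10 kb; the cause of these shifts was not tested. Genes with a lower region numbered 5 without the 15 on chromosomes gained in HepG2 cells and 1 over gene bodies alone, beside 9 as reported. For these alternatives no values over all protein-coding genes are given. Leaving out each library in turn gave 5.67 to 14 points for bodies, 3.32 to 7.77 points for windows, 9.21 to 20.3 for bodies of at most 10 kb, -1.88 to 4.85 for longer ones (-0.37 without siANP32B replicate 1), 15 to 20 genes covered in siANP32B and 12 to 13 in siControl; the lowest body and window values came without siANP32B replicate 1 and siControl replicate 2. Counting neighbours within 100 kb as 1 locus, chosen after seeing the data, gave 12 loci in siANP32B, 8 in siControl and 8.39 and 4.65 points; the values by gene length were likewise added then. With the replicate number as a block, the differences were the same 9.84 and 5.54 points, from 13.6 and 6.10 points within the numbers for bodies and 5.12 and 5.97 for windows; same-numbered libraries correlated at 0.14 in their deviations over 20037 genes, and the labels do not say that a number marks a shared batch. The design has 2 libraries per group, unknown depth and no error on the deposited folds, which limits how small a difference in coverage can be read.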
